A study of Homo sapiens with 12 samples.

Results

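Genes of ketone body synthesis and use were followed in CAOV3 cells: HMGCLL1, BDH1, BDH2, OXCT1 and ACAT1. They were taken by symbol from the gene counts, and each symbol matched 1 row, so 5 of the 19677 genes listed were members. CAOV3 is an established line of high-grade serous ovarian carcinoma, labelled wild type and kept in medium with 10% serum. RNA was sequenced from 12 libraries in 4 groups of 3 replicates. Control cells received DMSO, the ascites group 10% ovarian cancer ascites with DMSO, the bezafibrate group 200 uM of the drug, and the combination group the drug and 10% ascites. Treatment lasted 16 hours in the last 3 groups, and the label of the control group gives no time. DMSO is named for the control and ascites groups alone, so every drug contrast also holds any difference in solvent. All groups are 1 cell line, and neither the number of ascites donors nor separate cultures for the replicates are stated, so p-values measure the spread between these libraries, which may be technical.

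Ketone bodies are small fuels, acetoacetate and 3-hydroxybutyrate, that the liver makes from acetyl-CoA during fasting and that other tissues burn. Acetyl-CoA is condensed to acetoacetyl-CoA by a thiolase (ACAT1), acetoacetate is released from HMG-CoA by a lyase reaction, which HMGCLL1 can carry out outside mitochondria, and a dehydrogenase (BDH1) converts acetoacetate and 3-hydroxybutyrate into each other. Cells that use ketone bodies run BDH1 toward acetoacetate, activate it with succinyl-CoA through OXCT1, and cleave the product with ACAT1. Bezafibrate is a fibrate, a class of drugs that activate PPAR nuclear receptors.

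Total counts per library ran from 11831093 to 18762759, and 12470 genes had counts enough to be tested. The 4 members BDH1, BDH2, OXCT1 and ACAT1 were tested, with counts in each of the 12 libraries, and HMGCLL1 was not. Levels are given in CPM, counts scaled to a common library total by the TMM method, and depend on transcript length, so they are compared within a gene and not between genes. Of the markers of the labelled cell type, the epithelial keratins were high, with KRT8 at 3005 ± 45.8 CPM in control cells (SD, n = 3). The Müllerian lineage markers were at or near 0: SOX17 had 0 counts in every library, and the control group held 16 counts of PAX8, 5 of WT1 and 4 of MUC16 over its 3 libraries. The leukocyte marker PTPRC had 0 counts throughout, and the summed level of 5 leukocyte markers, 1 of them tested and not called in the averaged drug effect, ran from 0.238 to 0.750 CPM in control, 0.570 to 0.703 in ascites, 0.550 to 1.15 in bezafibrate and 0.821 to 1.02 in combination libraries. The summed level of 5 mesothelial and fibroblast markers was 6.75 to 8.49 CPM over the 6 libraries with the drug, against 10.4 to 12.2 CPM over the others. Of the 3 tested, 2 were called lower in the averaged drug effect. The fall lay in collagen genes: in control, ascites, bezafibrate and combination cells COL1A1 was at 6.23, 5.66, 3.89 and 3.46 CPM. COL3A1 was at 3.90, 5.06, 2.36 and 2.55 CPM. The mesothelial marker UPK3B went the other way, with 7, 6, 23 and 26 counts per group. CALB2 was at 0.890, 0.702, 0.795 and 1.17 CPM. Of the 10 serous epithelium markers 6 were tested, and 3 were called higher and 0 lower in the averaged drug effect: KRT7 (0.56), CDH1 (1.60) and PAX8 (1.07). The other 3 were not called, with EPCAM at 0.10, KRT8 at -0.03 and KRT18 at -0.02. The untested markers did not rise. In control, ascites, bezafibrate and combination cells MUC16 had 4, 6, 0 and 0 counts per group and WT1 5, 6, 2 and 2. MSLN had 25, 12, 16 and 13. KRT7 was at 762.1 ± 6.53 CPM in control and 1118 ± 41.7 CPM in bezafibrate, and KRT8 at 3005 and 2914 CPM. The part of these marker changes in the results below was not tested. In bulk RNA, fewer cells of a kind and less RNA per cell cannot be told apart. Combination replicate 3 stood apart from the other 11 libraries on the second principal component, and values without it are given where they change a call.

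The members did not change in 1 direction with the drug. BDH1 was higher with bezafibrate, OXCT1 was slightly lower, ACAT1 differed by little with narrow intervals, and HMGCLL1 was not detected. BDH2 was called lower in medium without ascites, but 11 of 23 alternatives ended that call. Its drug effects with and without ascites were not shown to differ. A gene is called here at an adjusted p under 0.05 in edgeR's quasi-likelihood test, adjusted over the 12470 genes. The contrasts overlap in libraries: the control libraries enter bezafibrate, ascites and the combination against control, and the averaged effects use all groups. In bezafibrate against control 3 of the 4 tested members were called, 1 higher and 2 lower, where 17.6% of all tested genes were called, 10.1% higher and 7.55% lower. Without control replicate 2, bezafibrate replicate 1 or bezafibrate replicate 2 that count was 1, with BDH1 still called each time. With all 12 libraries used, as the mean of the drug effect without and with ascites, 2 of 4 members were called (BDH1 higher, OXCT1 lower), against 28.3% of tested genes (15% higher, 13.2% lower), and without control replicate 2 the count was 1. The median log2 change of the 4 members in that averaged effect was -0.05, beside -0.0047 over all tested genes, and the median size regardless of sign was 0.10 beside 0.080.

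**Figure D1:**
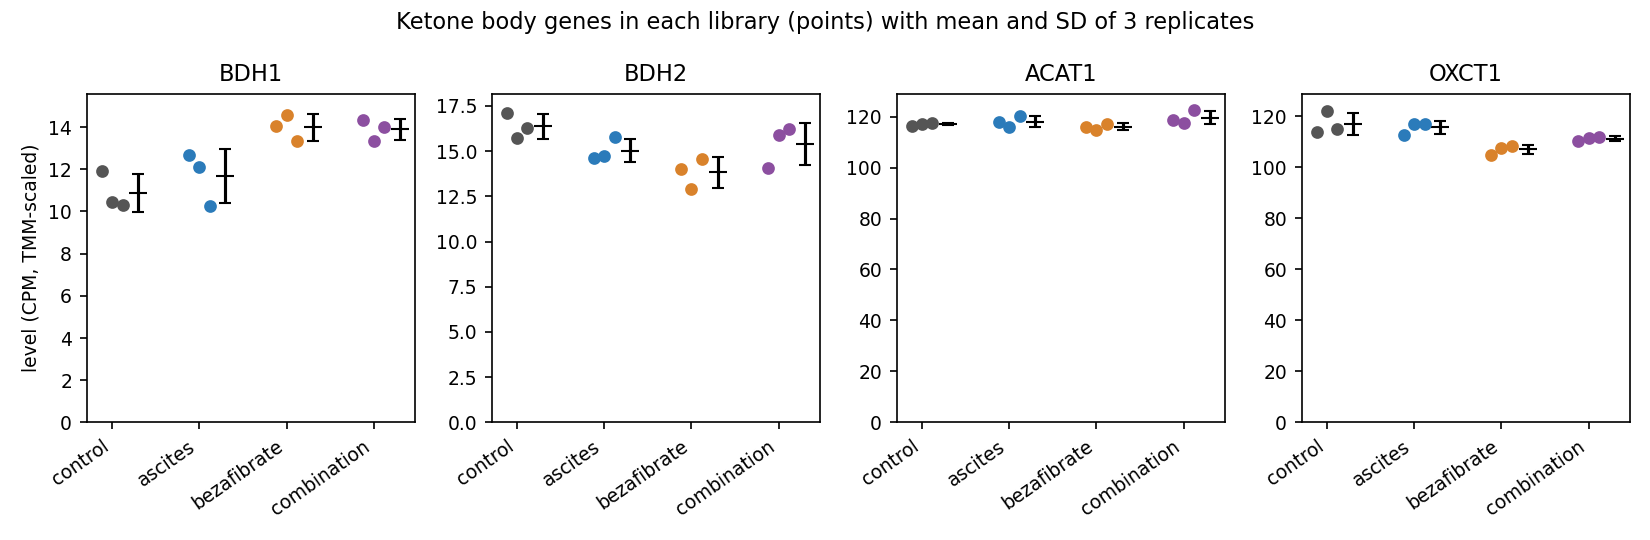
Level of the 4 detected members (CPM, vertical axes starting at 0) in each of the 12 libraries, by treatment group, with the mean and SD of 3 replicates beside the points. The 6 BDH1 points with the drug lie between 13.3 and 14.6 CPM and the 6 without it between 10.2 and 12.7 CPM; the ACAT1 points lie between 114.6 and 122.5 CPM in all groups.

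HMGCLL1 (ENSG00000146151.14), an HMG-CoA lyase that lies outside mitochondria, had 0 counts in each of the 12 libraries. A count of 0 allows up to 0.0173 CPM over all libraries together and up to 0.0738 CPM in the group with the smallest total, taking 3 counts as the limit and for counting error only. The gene lies on chromosome 6 at 55434369 to 55579214 on the minus strand (GRCh38, GENCODE release 29).

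BDH1 (ENSG00000161267.12) encodes the mitochondrial 3-hydroxybutyrate dehydrogenase, the enzyme that converts the ketone bodies into each other. Its level was 11.9, 10.4 and 10.3 CPM in the control libraries, from counts of 175, 142 and 130. It was 12.7, 12.1 and 10.2 CPM with ascites, 14.05, 14.58 and 13.33 CPM with bezafibrate, and 14.31, 13.33 and 14.01 CPM with both. Each of the 6 libraries with the drug was above each of the 6 without it, as for 9.01% of tested genes. The order of the group means was control (10.9 ± 0.902 CPM), ascites (11.7 ± 1.27), combination (13.9 ± 0.502) and bezafibrate (13.99 ± 0.629; SD, n = 3 each), and control and ascites overlapped, as did combination and bezafibrate, while ascites and combination did not. In the pairwise contrasts, 17.2% of tested genes were higher without overlap in bezafibrate than in control, and 16% in the combination than in ascites.

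In bezafibrate against control BDH1 rose by 28.3%, or 0.36 on the log2 scale (SE 0.099, 95% interval 0.16 to 0.56, edgeR adjusted p 0.00773). With ascites present, the combination against ascites gave 0.26 with an SE of 0.10 (95% interval 0.053 to 0.46), with no overlap between the libraries, but the edgeR adjusted p of 0.0743 missed the threshold. The difference between these 2 responses was -0.10 with an interval from -0.39 to 0.19 (interaction, edgeR adjusted p 0.999), so they were not shown to differ. The averaged drug effect was 0.31 with an SE of 0.071, a rise of 23.9% (edgeR adjusted p 0.000776), and its call held in all 21 alternatives, with values from 0.26 to 0.35. Against control the combination gave 0.35 (edgeR adjusted p 0.0123), again without overlap, as for 15.6% of tested genes. That call was lost without control replicate 2 (adjusted p 0.0587), control replicate 3 (0.0631) or combination replicate 1 (0.0527).

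BDH1 lies on chromosome 3 at 197509783 to 197573323 on the minus strand. RefSeq lists more than 1 start site for it, and the sequences upstream of an outer and an inner start are shown because BDH1 is the member that rose with a PPAR-activating drug. Each is 250 bases long, 5′ to 3′ on the gene's strand (GRCh38.p14), and capitals mark a match to the DR1 element, a pair of AGGTCA copies in the same direction with 1 free base between them, which PPAR and its partner RXR are known to bind. Either strand was searched with at most 3 mismatches in its 12 fixed letters.
BDH1 first window, chr3:197573344-197573593: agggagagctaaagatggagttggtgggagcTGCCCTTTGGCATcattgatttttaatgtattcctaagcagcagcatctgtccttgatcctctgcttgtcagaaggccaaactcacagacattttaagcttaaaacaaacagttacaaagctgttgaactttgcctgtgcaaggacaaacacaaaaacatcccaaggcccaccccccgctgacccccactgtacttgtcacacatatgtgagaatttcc
BDH1 second window, chr3:197555969-197556218: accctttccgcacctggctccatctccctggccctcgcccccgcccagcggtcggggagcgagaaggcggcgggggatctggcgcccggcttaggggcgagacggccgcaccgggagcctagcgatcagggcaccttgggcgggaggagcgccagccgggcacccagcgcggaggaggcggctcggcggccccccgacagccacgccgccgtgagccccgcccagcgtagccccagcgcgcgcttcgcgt
The first window has 45.6% G and C and 1 CG pair, and the second has 77.6% and 34 CG pairs, where the median of 35116 RefSeq windows is 58.0% and 11. The match in the first window has 3 mismatches, and 17.97% of all windows hold such a match. Of the 8 windows found for the 5 members no other holds one, those of ACAT1, BDH2 and HMGCLL1 included. Whether the match has a part in the rise of BDH1 was not tested. A single exact AGGTCA, which overlaps a DR1 element wherever that has an intact copy, is in neither BDH1 window, on either strand, and is in 12.1% of all windows. A match is a description of the letters, and the counts do not tell which start was used.

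BDH2 (ENSG00000164039.15) encodes a cytosolic short-chain dehydrogenase that was named for the same reaction as BDH1. Its level was 17.1, 15.7 and 16.3 CPM in control, 14.60, 14.75 and 15.76 CPM with ascites, 13.99, 12.91 and 14.57 CPM with bezafibrate, and 14.08, 15.88 and 16.21 CPM with both. The bezafibrate libraries were below all control libraries, as for 16.3% of tested genes, while the combination libraries reached below and above the ascites libraries. By group mean the order was bezafibrate (13.8 ± 0.838 CPM), ascites (15.04 ± 0.629), combination (15.4 ± 1.15) and control (16.4 ± 0.701). The highest bezafibrate value lay just below the lowest ascites value, a pair of groups with no contrast here, and the other neighbours overlapped. In bezafibrate against control the change was -0.25 with an SE of 0.088 (95% interval -0.43 to -0.07, edgeR adjusted p 0.0441). The combination against ascites gave 0.02 with an SE of 0.090 (95% interval -0.16 to 0.21, edgeR adjusted p 0.915). The difference between the drug effects with and without ascites was 0.27 with an interval from 0.02 to 0.53. Its unadjusted p was 0.0384 and its edgeR adjusted p 0.999, so no difference was called.

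Of 23 alternatives, 11 ended the BDH2 call, including DESeq2 (adjusted p 0.151), and without control replicate 1 (edgeR adjusted p 0.176), control replicate 2 (0.0596), control replicate 3 (0.0937), ascites replicate 1 (0.0535), ascites replicate 2 (0.053), bezafibrate replicate 1 (0.0817), bezafibrate replicate 2 (0.218) or combination replicate 2 (0.0502). BDH2 lies on chromosome 4 at 103079435 to 103099883 on the minus strand and shares 397 exon bases with SLC9B2, a gene on the same strand, so how reads were divided between them is uncertain. SLC9B2 changed by -0.12 in the same contrast (SE 0.089, edgeR adjusted p 0.418). With the counts of both genes summed, a setting added after the data were seen, the change was -0.18 without ascites (edgeR adjusted p 0.0403) and -0.13 in the averaged drug effect (adjusted p 0.0284), where BDH2 alone gave -0.11 (adjusted p 0.19).

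OXCT1 (ENSG00000083720.13) encodes the mitochondrial succinyl-CoA transferase that commits acetoacetate to oxidation, and the liver's lack of this enzyme is the textbook reason why it exports ketone bodies. Its level was 113.9, 122.0 and 115.0 CPM in control, 112.8, 117.0 and 117.1 CPM with ascites, 105.0, 107.7 and 108.5 CPM with bezafibrate, and 110.2, 111.4 and 112.0 CPM with both. Each of the 6 libraries with the drug was below all 6 without it, as for 6.32% of tested genes, but the gap between the sets was small, with 112.0 CPM the highest with the drug and 112.8 CPM the lowest without it. The means ran from bezafibrate (107.1 ± 1.81 CPM) through combination (111.2 ± 0.959) and ascites (115.6 ± 2.47) to control (117.0 ± 4.35), and of the neighbouring pairs only ascites and control overlapped. The combination libraries were below all ascites libraries, as for 14.5% of tested genes, below all control libraries, as for 14.6%, and above all bezafibrate libraries, as for 4.44%. In the last contrast OXCT1 gave 0.05 (edgeR adjusted p 1).

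In bezafibrate against control OXCT1 fell by 8.47%, and the change was -0.13 on the log2 scale (SE 0.039, 95% interval -0.21 to -0.05, edgeR adjusted p 0.0176). The call was lost without control replicate 2 (adjusted p 0.164), the control library with the highest value, and without bezafibrate replicate 1 (0.0859) or bezafibrate replicate 2 (0.0506). The combination against ascites gave -0.06 with an interval from -0.14 to 0.02 (edgeR adjusted p 0.382), and the interaction was 0.07 with an interval from -0.04 to 0.18 (edgeR adjusted p 0.999). The averaged drug effect was -0.09 with an SE of 0.028, so that OXCT1 fell by 6.2% (edgeR adjusted p 0.0108), and was lost without control replicate 2 (adjusted p 0.0531). The gene lies on chromosome 5 at 41730065 to 41870519 on the minus strand. Its 250 bases upstream of the outer RefSeq start are shown as a second example.
OXCT1 first window, chr5:41870426-41870675: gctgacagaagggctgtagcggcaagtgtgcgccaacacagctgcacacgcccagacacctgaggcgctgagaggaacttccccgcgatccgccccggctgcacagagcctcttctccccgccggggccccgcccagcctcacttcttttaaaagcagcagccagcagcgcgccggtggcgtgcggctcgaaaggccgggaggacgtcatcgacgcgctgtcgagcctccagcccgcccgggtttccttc
This window has 68.0% G and C and 25 CG pairs, and holds neither a DR1 match within 3 mismatches nor an exact AGGTCA, so it has no capitals. Most windows lack a DR1 match, since 17.97% of all windows hold one. Whether its absence has a part in the change of OXCT1 was not tested. OXCT1 shares 229 exon bases with the antisense gene OXCT1-AS1, and whether strand was used in counting is not stated.

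ACAT1 (ENSG00000075239.14) encodes the mitochondrial acetoacetyl-CoA thiolase, which works at both ends of the route, and in the last step of isoleucine breakdown. Its level was 116.4, 117.2 and 117.6 CPM in control, 117.8, 116.0 and 120.3 CPM with ascites, 116.0, 114.6 and 117.3 CPM with bezafibrate, and 118.5, 117.6 and 122.5 CPM with both. The highest value was in combination replicate 3, the library that stood apart. The order of the means was bezafibrate (116.0 ± 1.36 CPM), control (117.1 ± 0.562), ascites (118.0 ± 2.17) and combination (119.5 ± 2.61), and each neighbouring pair overlapped. The combination libraries were all above the bezafibrate libraries, as for 4.44% of tested genes, and above the control libraries, as for 15.6%, with changes of 0.04 (edgeR adjusted p 1) and 0.03 (0.679). The averaged drug effect was 0.00155 with a 95% interval from -0.05 to 0.06 (edgeR adjusted p 0.976), which as a fold is 0.964 to 1.04. Of all tested genes, 1.07% had a smaller averaged drug effect regardless of sign. The gene lies on chromosome 11 at 108121516 to 108147776 on the plus strand and shares exon bases with antisense genes, AP002433.1 (163 bases) and AP002433.2 (212 bases).

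**Figure D2:**
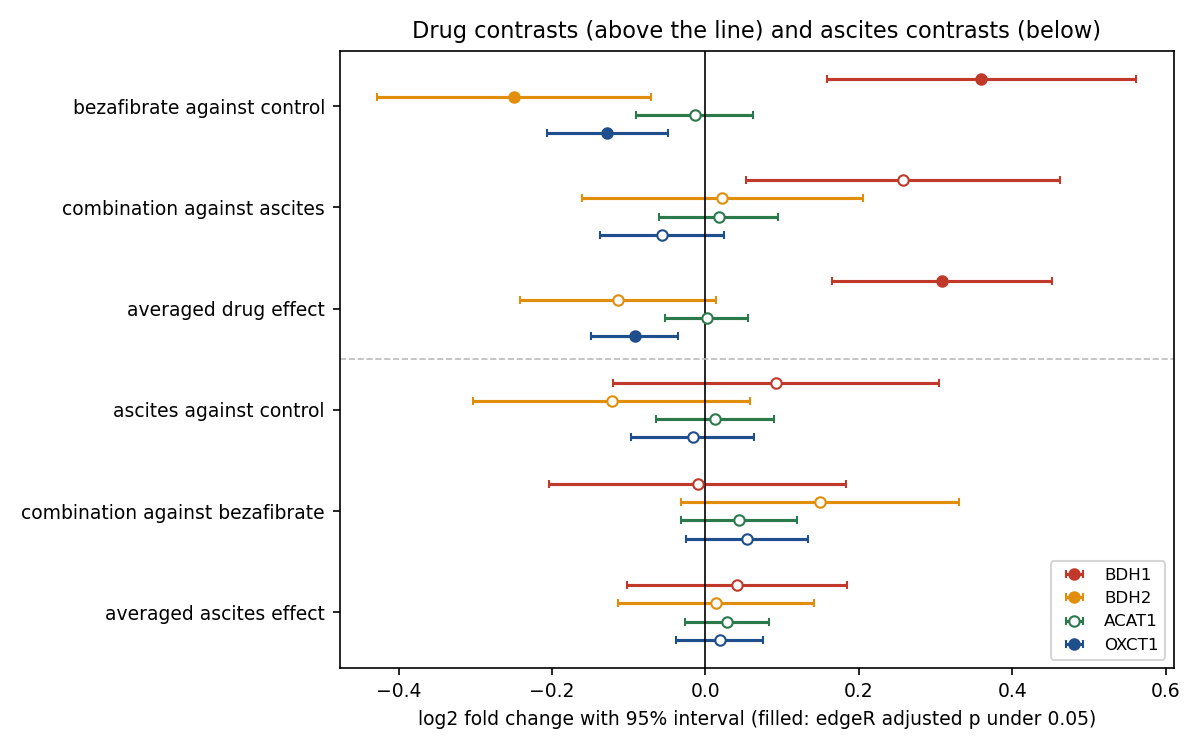
Log2 fold change of BDH1, BDH2, ACAT1 and OXCT1 (points) with 95% intervals (bars) in 3 drug contrasts above the dashed line and 3 ascites contrasts below it; filled points passed an edgeR adjusted p under 0.05. BDH1 lies to the right of 0 in all 3 drug contrasts, and the ACAT1 intervals include 0 in all of them, as does every interval of the ascites contrasts drawn.

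No member was called in an ascites contrast. In ascites against control 0 of 4 were called by edgeR, DESeq2 or limma-voom, 0 had an unadjusted p under 0.05, and 0.0882% of all tested genes were called by edgeR. In the combination against bezafibrate, where 0.128% of genes were called, the members again gave 0 calls by each tool and 0 unadjusted p under 0.05. The averaged ascites effect gave 0 of 4 calls by each tool and 0 unadjusted p under 0.05, beside 0.281% of tested genes called. It was 0.04 for BDH1 (95% interval -0.10 to 0.19), 0.01 for BDH2 (-0.11 to 0.14), 0.02 for OXCT1 (-0.04 to 0.08) and 0.03 for ACAT1 (-0.03 to 0.08). These averaged intervals leave room for changes of up to 0.19 on the log2 scale for BDH1 and up to 0.08 for OXCT1 and ACAT1. The single contrasts leave room for more, with a BDH1 interval from -0.12 to 0.31 in ascites against control. For BDH2 the average joins values of opposite sign. They were -0.12 (95% interval -0.30 to 0.06) in ascites against control and 0.15 (-0.03 to 0.33) in the combination against bezafibrate. That difference was not called in the interaction.

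The drug contrast with ascites present called 0 of 4 members by each of the 3 tools, with 1 unadjusted p under 0.05 (BDH1), where 17.8% of all tested genes were called by edgeR. The combination against control called 1 of 4 (BDH1), beside 18.2% of tested genes. Its values for the others were -0.10 for BDH2 (edgeR adjusted p 0.517), -0.07 for OXCT1 (0.228) and 0.03 for ACAT1 (0.679). In the interaction 0 of 4 members and 0% of tested genes were called by edgeR, and 1 member, BDH2, had an unadjusted p under 0.05, as did 445 of all tested genes. DESeq2 and limma-voom called 0 of 4 members there too.

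Other genes of ketone body metabolism were read from lists of general knowledge. Of 6 other genes of synthesis and use, 1 was called higher in the averaged drug effect (SUCLA2) and 0 lower, beside 15% and 13.2% of all tested genes. SUCLA2, a subunit of succinyl-CoA synthetase, rose by 0.14 (SE 0.039, edgeR adjusted p 0.00438), with overlap between libraries with and without the drug. OXCT2, the testis relative of OXCT1, was at 1.70 ± 0.370 CPM in control, and AACS, the cytosolic enzyme that activates acetoacetate for lipid synthesis, changed by 0.06 (edgeR adjusted p 0.178).

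**Figure D3:**
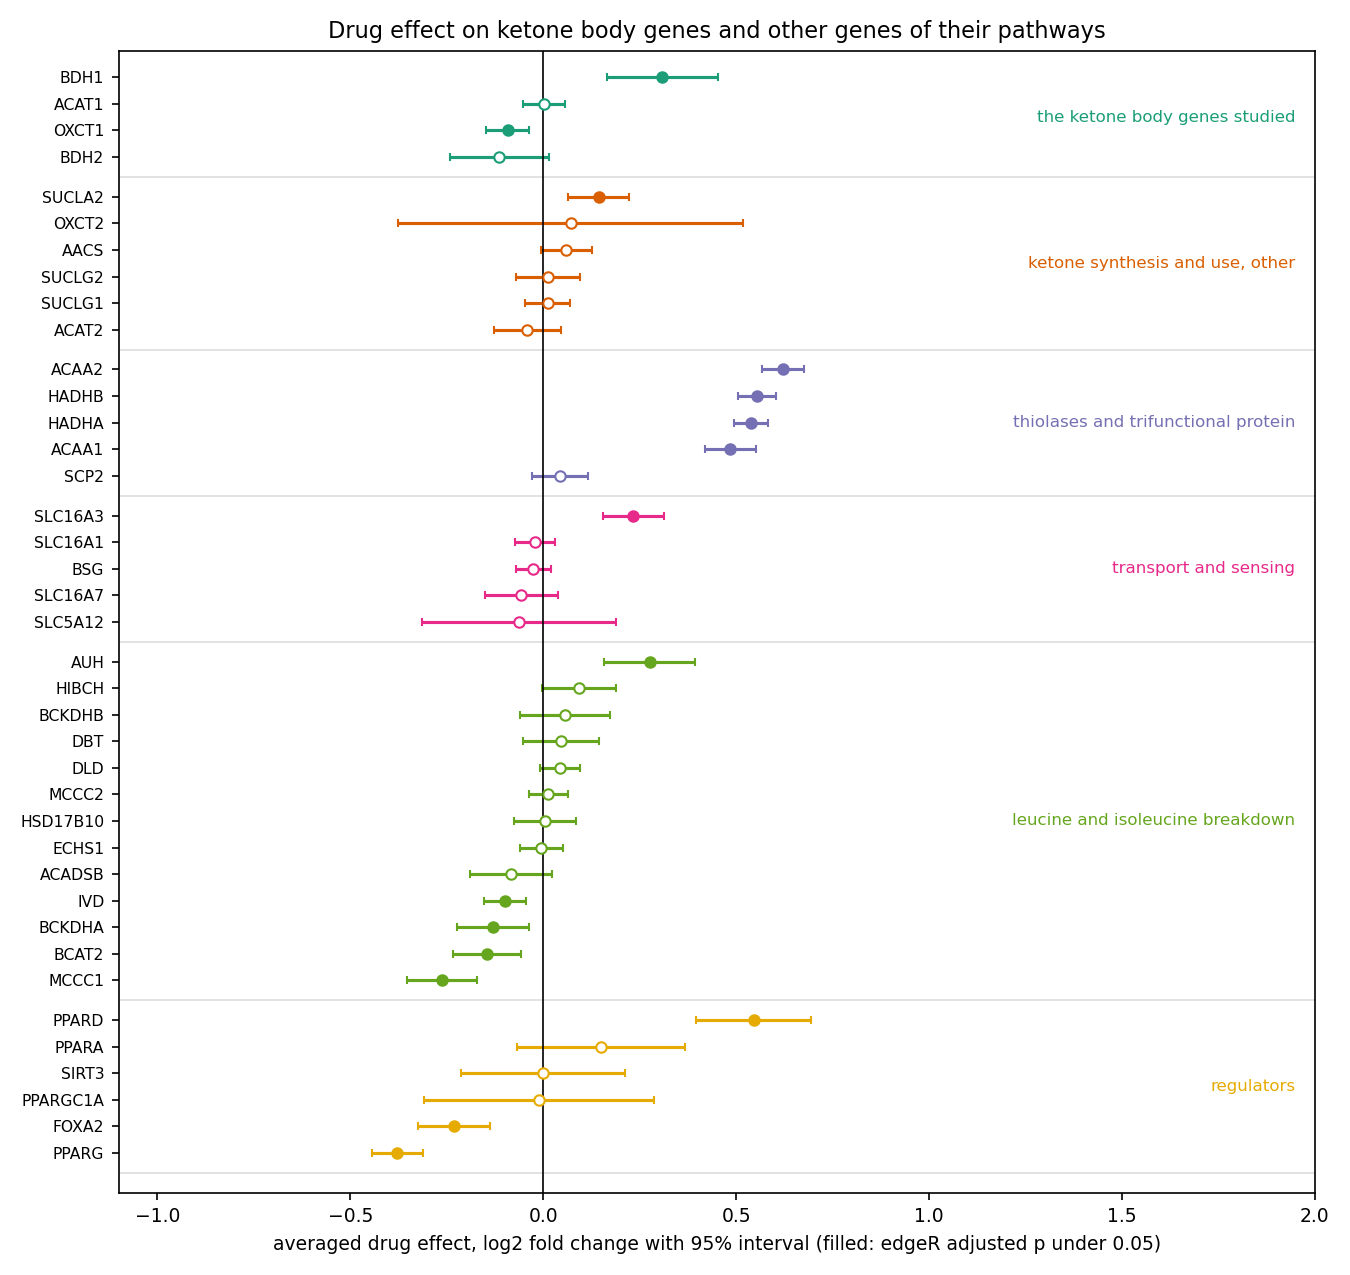
Averaged drug effect (log2 fold change, horizontal axis) with 95% intervals for the 4 detected members and 35 other tested genes, grouped by list; filled points passed an edgeR adjusted p under 0.05. ACAA2, HADHB, HADHA and ACAA1 lie between 0.48 and 0.62, while SCP2 of the same list, OXCT1 and ACAT1 lie close to 0.

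The enzymes of the list that follows make acetyl-CoA from fatty acids. Of 5 thiolases and trifunctional protein subunits, 4 were called higher in the averaged drug effect and 0 lower: ACAA2 (0.62), HADHB (0.55), HADHA (0.54) and ACAA1 (0.48), each with no overlap between libraries with and without the drug. Of all tested genes, 15% were called higher and 9.01% were higher without overlap. HADHA went from 488.7 ± 8.29 CPM in control to 691.3 ± 20.4 CPM with bezafibrate. SCP2, a peroxisomal thiolase, gave 0.04 (edgeR adjusted p 0.424). The list's median log2 change was 0.54, beside -0.0047 over all tested genes, and the change of ACAT1, also a thiolase, was 0.00155.

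Ketone bodies cross membranes through monocarboxylate transporters. Of 11 transport and sensing genes 5 had counts enough to be tested, and 1 was called higher and 0 lower. That was SLC16A3, which exports lactate, at 0.23 (SE 0.039, edgeR adjusted p 9.33e-06). SLC16A1, the main importer in most cells, was at 145.2 ± 3.66 CPM in control and 142.2 ± 0.957 CPM with bezafibrate, with an averaged drug effect of -0.02 and an interval from -0.07 to 0.03 (edgeR adjusted p 0.606). HCAR2, the receptor for 3-hydroxybutyrate, was among the 6 that were not tested.

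Leucine breakdown ends in acetoacetate, and isoleucine breakdown passes through ACAT1. The 14 genes listed for these routes include HIBCH, an enzyme of valine breakdown. Of the 14, 13 were tested, with 1 called higher and 4 lower in the averaged drug effect, where 15% of all tested genes were called higher and 13.2% lower. MCCC1, a subunit of methylcrotonyl-CoA carboxylase, fell by 0.26 on the log2 scale (edgeR adjusted p 1.71e-05), BCAT2 by 0.15 (0.0097), BCKDHA by 0.13 (0.0301) and IVD by 0.10 (0.00401). AUH, the hydratase of the step after MCCC1, rose by 0.28 (SE 0.058, edgeR adjusted p 0.000288). The BCKDHA call was lost with DESeq2 (adjusted p 0.077) and without control replicate 1 (edgeR adjusted p 0.106), ascites replicate 1 (0.0769), bezafibrate replicate 1 (0.0751), bezafibrate replicate 3 (0.052) or combination replicate 3 (0.104). Of 6 regulators, PPARD rose by 0.55 (edgeR adjusted p 1.66e-07), PPARG fell by 0.38 (4.69e-12) and FOXA2 fell by 0.23 (0.000139), while PPARA gave 0.15 with an interval that included 0 (adjusted p 0.338). Over these lists together, 8 of 35 tested genes were called higher and 6 lower, beside 15% and 13.2% of all tested genes, with a median log2 change of 0.012 beside -0.0047 for all tested genes.

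**Figure D4:**
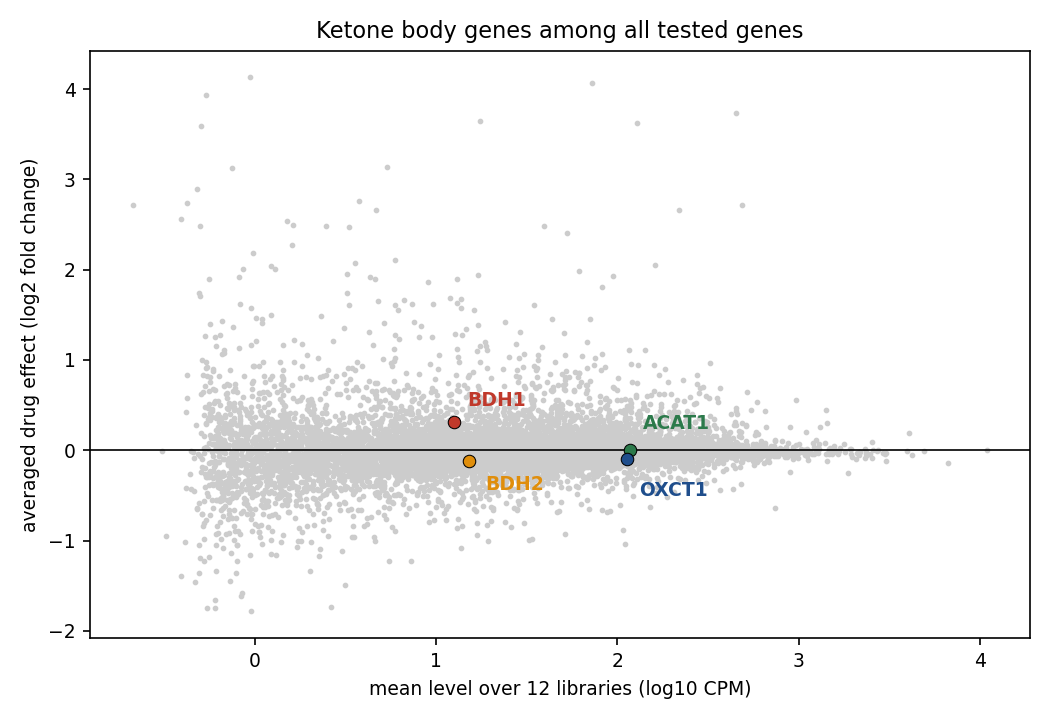
Averaged drug effect (log2 fold change, vertical axis) against the mean level over 12 libraries (log10 CPM, horizontal axis, not corrected for gene length) for all 12470 tested genes (grey), with the 4 detected members marked. BDH1 lies at 0.31, above 0, and BDH2 at -0.11 and OXCT1 at -0.09, below it.

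The genes whose pattern over the 12 libraries was most like that of each member were read by Pearson's r of log2 CPM among tested genes averaging 1 CPM or more. For BDH1 these were RHOV (r = 0.949), TMEM53 (0.942) and RIN1 (0.942). For OXCT1 they were WWP1 (0.950), CENPU (0.938) and CDCA5 (0.937). For BDH2 they were PTGES3L (0.943), SMAD1 (0.936) and DCLRE1B (0.877), and for ACAT1 RFK (0.866), CEP76 (0.844) and ZNF721 (0.825). These r values are descriptions: the libraries share their treatment groups and depth, and for each member the 3 highest values over all such genes were taken. Set against all tested genes, 87.3% had a smaller averaged drug effect, regardless of sign, than BDH1, 62.1% a smaller one than BDH2 and 54.8% a smaller one than OXCT1.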

How the data were processed

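For each library the authors deposited gene counts, as whole numbers in a file without a header that joins the gene identifier to its symbol. Per the submitters' processing notes, Trimmomatic 0.39, STAR 2.7.9a, RSEM 1.3.3, DESeq2 1.28.1 and the build GRCh38 were used. The role of each tool is not stated there, and the annotation release and strandedness are not given in the sources used here.

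Genes were kept by filterByExpr (minimum count 10, minimum total 15), which left 12470 of 19677 genes. Libraries were scaled by TMM and tested with edgeR 4.0.16 (glmQLFit with robust estimation, glmQLFTest) in R 4.3.3, with 1 mean per group and Benjamini-Hochberg adjustment over all genes tested. Standard errors were taken from the log2 change and its F value, as |change| over the root of F. The fit was checked on counts simulated with the same spread for every gene and no outlying library. That check cannot tell how secure the calls near the threshold are. Pairs of replicates differed beyond sampling noise (chi-square per degree of freedom from 1.44 to 4.45), so each library counted once.

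The members and gene lists were chosen with earlier results of these data known. The rule for named genes took all members, SLC16A1 and each listed pathway gene called in the averaged drug or ascites effect, plus the 3 genes most like each member; other listed genes named were chosen after their values were seen. Alternatives used DESeq2 1.42.0, limma-voom (limma 3.58.1), other scalings and filters, a replicate block, and fits without 1 library. Gene positions come from GENCODE release 29, and upstream sequences from RefSeq (GRCh38.p14), where all 5 members matched. Some genes of the pathway are not reported here.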

Additional observations from a re-analysis of the deposited data

How the results depend on the processing

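No member's change reversed under any alternative. Of 696 member values under the alternatives 674 kept the side of the threshold, 21 lost a call and 1 gained one, and 20 changes of sign were between values that were not called in either fit. Of 2591 values of the other named genes 2539 kept theirs, 33 lost a call and 19 gained one. Most member values belong to results not called in the main fit, which had no call to lose. In bezafibrate against control the call was kept in 22 of 22 alternatives for BDH1, 18 of 22 for OXCT1 and 12 of 23 for BDH2. In the averaged drug effect it was kept in 21 of 21 for BDH1 and 19 of 21 for OXCT1. In the combination against control BDH1 kept it in 18 of 22. The alternatives include the main fit read at an adjusted p under 0.01. The cause of changed calls was not tested, except that a stricter threshold calls fewer genes by construction.

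With an adjusted p under 0.01, the members called were 1 in bezafibrate against control, 0 in the combination against control and 1 in the averaged drug effect. The genes called were then 1475 in the combination against ascites, 4 in ascites against control, 6 in the combination against bezafibrate and 19 in the averaged ascites effect. With no low-count filter the calls were 59 in ascites against control, 52 in the combination against bezafibrate, 36 in the interaction and 113 in the averaged ascites effect. Limma-voom called 7 genes in ascites against control, and DESeq2 called 1 in the interaction. Fitted with only the 2 groups compared, 33 genes were called in ascites against control and 7 in the combination against bezafibrate.

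When 1 library was left out, the members called ranged from 1 to 3 in bezafibrate against control, 0 to 1 in the combination against control and 1 to 2 in the averaged drug effect. Genes called ranged from 3 to 24 in ascites against control, 9 to 28 in the combination against bezafibrate, 0 to 3 in the interaction and 21 to 118 in the averaged ascites effect, with the highest count reached without combination replicate 3, except in the interaction, where it was without combination replicate 1.

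No shared deviation was seen by the replicate numbers of the labels: same-numbered libraries of different groups had correlations of their deviations between -0.135 and 0.0613 over 18 pairs. These values do not tell whether same-numbered libraries were handled together. With the replicate number as a block, the members called were 3 in bezafibrate against control, 1 in the combination against control and 2 in the averaged drug effect, as without it, and 1 gene was called in the interaction. Depth limits BDH1 and BDH2 most, with counts between 130 and 271 per library.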
